A study of Homo sapiens with 12 samples.

Results

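RNA recovered with FLAG-tagged human Arid5a was compared with RNA recovered by a control antibody in HK2 cells kept with IL-17. The 6 libraries, of 12 in the series, were chosen by their column names: 3 precipitations with an antibody against FLAG and 3 with mouse IgG1. HK2 is an established line of human kidney epithelial cells. All cells, the IgG controls included, had been transfected with 10 µg of the FLAG-Arid5a plasmid and kept with IL-17 at 200 ng/mL for 3 h, so both groups carried the tagged protein and the cytokine. The antibody was the only labelled difference. An input library and cells without the plasmid were not analysed here, and the labels do not say whether replicates came from separate cultures. The p-values therefore measure the spread between these libraries, which may be technical.

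RNA immunoprecipitation recovers a protein together with the transcripts bound to it, and the IgG precipitate measures RNA that stays on the beads without the antibody's target. ARID5A carries an AT-rich interaction domain. It is known as an RNA-binding protein that stabilises inflammatory mRNAs, among them that of IL-6. IL-17 is a cytokine that acts on epithelial cells largely through the stability of such mRNAs, and kidney tubule cells are among its targets.

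The deposited values are estimated counts for 60708 features with versioned Ensembl identifiers. The files do not pair these identifiers with gene names, and 0 of them matched the reference table used here. Genes, gene families, RNA classes and the markers of HK2 cells were therefore not identified here, and no sequence was assigned. The transfected gene was not looked up either. Whether any feature described below, the abundant ones included, was its transcript was not determined. The features are described instead by their level, by an apparent length and, for a few, by their identifier.

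Total counts were 17723136, 13653406 and 17651848 in FLAG replicates 1 to 3 and 5365495, 10336247 and 15837845 in IgG replicates 1 to 3. Taking 3 counts as the floor, for counting error alone, a feature at 0 could have a level of up to 0.143 CPM (TMM-scaled counts per 1000000) in FLAG replicate 1 and 0.379 CPM in IgG replicate 1, the lowest and highest such limits of the 6 libraries. The FLAG libraries resembled each other more than the IgG libraries did. Across features, which are not independent replicates, log2 CPM values of FLAG pairs had Pearson correlations of 0.95 to 0.962. IgG pairs had 0.833 to 0.875, and pairs of both antibodies 0.802 to 0.914. IgG replicate 3 had 0.911, 0.91 and 0.914 with FLAG replicates 1 to 3, and 0.833 and 0.875 with the other IgG libraries. IgG replicate 2 had 0.894, 0.897 and 0.878 with FLAG replicates 1 to 3, and 0.865 and 0.875 with IgG replicates 1 and 3. For both, all values with FLAG were the higher ones. For IgG replicate 1 the values with FLAG and with IgG overlapped. IgG replicate 1 stood apart in its number of features. Thinned to its depth, the other 5 libraries held between 21879 and 29201 features, and IgG replicate 1 held 42600.

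The first question was which features FLAG precipitation recovered more or less than IgG. No feature passed the threshold when the 6 libraries were fitted alone: edgeR's quasi-likelihood test called 0 of 19349 features higher and 0 lower (0% in either direction), and no adjusted p was below 0.103. Before adjustment, 2100 features (10.9% of those tested) were higher in FLAG at p under 0.05 and 2248 (11.6%) were lower. Libraries of both antibodies did not overlap for 3071 features higher in FLAG (15.9%) and for 2643 lower (13.7%). DESeq2 called 744 higher and 1152 lower at an adjusted p under 0.05. Limma with a quality weight per library called 369 higher and 216 lower; it gave the lowest weights, 0.37 and 0.41, to IgG replicates 3 and 1. By edgeR, leaving out IgG replicate 3 gave 310 higher and 452 lower, and leaving out IgG replicate 1 gave 1 higher and 0 lower.

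The higher and the lower features differed in size of effect and in level. The 2100 higher features had a median log2 fold change of 0.74, a 1.66-fold difference, and a median level of 32.4 CPM. The 2248 lower features had a median of -2.49, a 5.6-fold difference, at a median level of 2.95 CPM. Both sets were picked by p in these same data, and scarce features generally need a larger fold to reach a given p. The difference in fold between the sets is therefore descriptive. Over all tested features the median log2 fold change was -0.11 and the median level 7.79 CPM. The balance depended on scaling. Of the features past an unadjusted p of 0.05 in either direction, 48.3% were higher with the TMM factors used here, 27.7% with upper-quartile factors (1229 higher, 3204 lower) and 17.3% with library size only (476 higher, 2270 lower). The median of all features moved from -0.11 to -0.34 and -0.32 with these scalings.

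**Figure D1:**
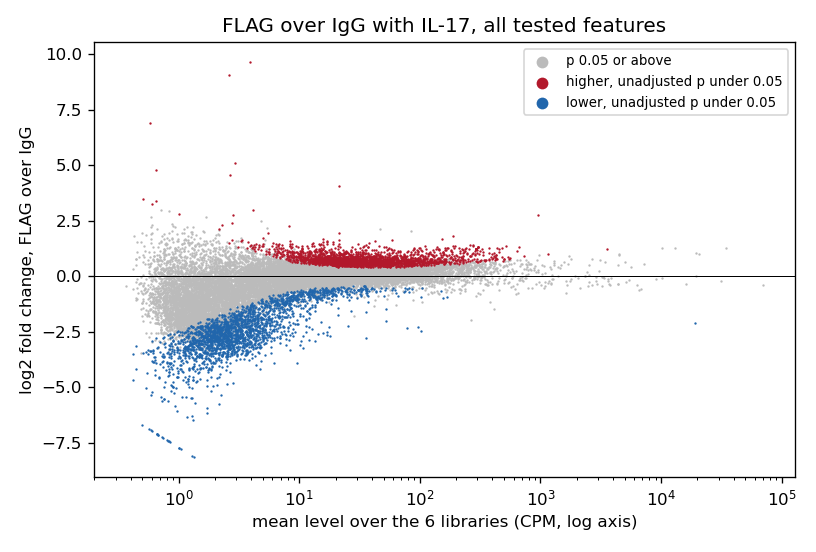
Each point is 1 of 19349 tested features, with its mean level over the 6 libraries (CPM, log axis) across and its log2 fold change of FLAG over IgG up; red and blue points had an unadjusted p under 0.05 in edgeR. Red points lie around a median of 32.4 CPM and 0.74, and blue points around 2.95 CPM and -2.49.

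Level classes were compared next. Features with a mean under 3 CPM (n = 6366) had a median log2 fold change of -1.36, with 0.236% higher and 18% lower. Features over 100 CPM (n = 1300) had a median of 0.35, with 22.8% higher and 0.538% lower. The classes between changed in order: -0.31 at 3 to 10 CPM, 0.15 at 10 to 30 and 0.28 at 30 to 100. The class of 10 to 30 CPM turned to -0.07 with upper-quartile scaling and -0.03 with library size only; the other 4 kept their sign under both. IgG replicate 1 was the highest library at the low end. For features under 3 CPM, the median log2 level relative to the mean of the 6 libraries was -0.35, -0.04 and -0.86 in FLAG replicates 1 to 3 and 1.54, 0.46 and -0.07 in IgG replicates 1 to 3. IgG replicate 3 was below FLAG replicate 2, so the groups overlapped for this measure, with a mean of -0.416 ± 0.411 (SD, n = 3) in FLAG and 0.644 ± 0.823 (SD, n = 3) in IgG. The exact two-sided permutation p was 0.2, or 0.267 after Benjamini-Hochberg adjustment over 4 library measures. The smallest p that 3 against 3 libraries allow is 0.1. Level classes were set after the data were seen, so the p is descriptive. Without IgG replicate 1 the median of these scarce features was -0.74 and that of features over 100 CPM was 0.16. The median of the scarce class was -0.88 by limma with quality weights and -0.13 by limma on log2(TPM + 1). A filter of 50 counts in 3 libraries turned it to 0.96, but kept 5 of the 6366 features.

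Length classes were then compared. An apparent length was taken as the ratio of estimated count to TPM (a level per length, scaled to 1000000 in each library), scaled so that the median feature is 1. It could be computed for 17554 of the 19349 tested features. Among features with a mean of at least 10 CPM, the median log2 fold change fell in order of length from 1.01 at 0.05 to 0.2 of the median feature's length (n = 116) to 0.63 at 0.2 to 0.5, 0.33 at 0.5 to 1, 0.18 at 1 to 2 and 0.07 above 2 (n = 1776). The last 2 medians changed sign with upper-quartile scaling, to -0.03 and -0.14, and that of the longest class also with library size only, to -0.11. The difference between the short and the long class was 0.94; a scaling factor per library shifts both classes alike and so nearly cancels in it.

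Shares of higher features were set beside length within classes of level. Among features of 30 to 100 CPM, 22 of 25 with a relative length of 0.05 to 0.2 were higher in FLAG (88%). The background was 25.8% over all features of this level and 10.9% over all tested features. The share higher at this level was 66.2% at a relative length of 0.2 to 0.5, 36.1% at 0.5 to 1, 20.5% at 1 to 2 and 10.3% above 2. Over 100 CPM, 22.8% of all features were higher, and the order was broken at the short end. There 33 of 57 features (57.9%) with a length of 0.05 to 0.2 were higher, 89 of 142 (62.7%) at 0.2 to 0.5 and 21 of 328 (6.4%) above 2. Lower features were more frequent among long ones. Of all features at 3 to 10 CPM 19.1% were lower, and of all tested features 11.6%. At 3 to 10 CPM, 294 of 646 features with a length above 2 were lower (45.5%), and 17 of 488 (3.48%) at 0.2 to 0.5. The class of 0.05 to 0.2 did not follow that order, with 5 of 38 lower (13.2%), beside 10.6% at 0.5 to 1. Several of the classes are small, and members can share reads: 78 tested features fell in 31 sets with identical counts in all 6 libraries, and 20 of the higher features were in such sets.

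**Figure D2:**
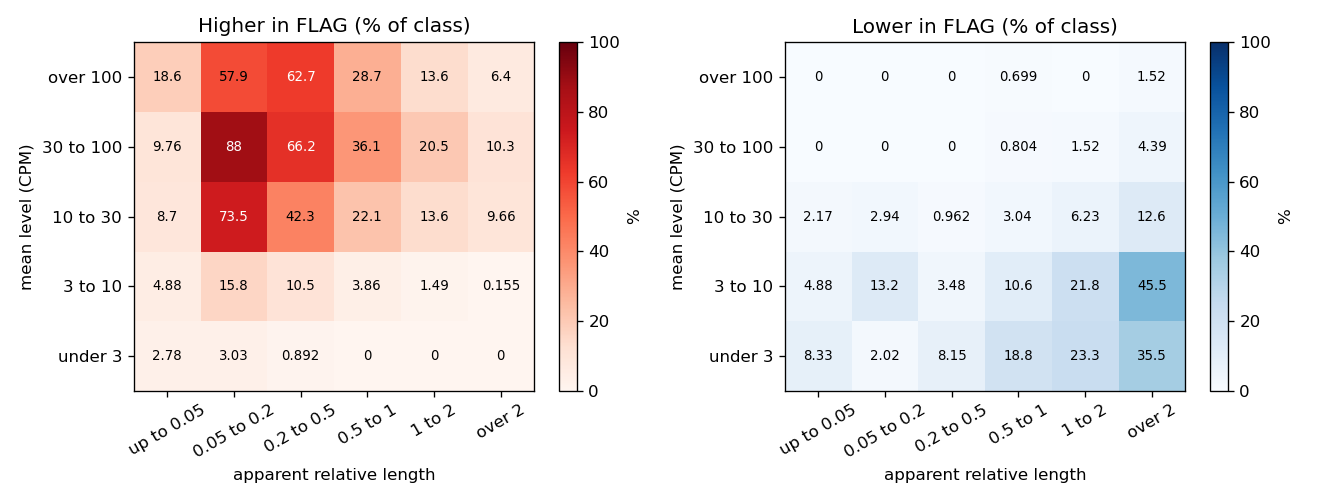
Each cell gives the percentage of features that were higher (left) or lower (right) in FLAG at an unadjusted p under 0.05, by apparent relative length (across) and mean level in CPM (up). The share higher reaches 88% for short features of 30 to 100 CPM, and the share lower reaches 45.5% for long features of 3 to 10 CPM.

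The shortest class departed from this order. Features with a relative length up to 0.05 and a mean of at least 10 CPM (n = 189) had a median log2 fold change of -0.31. Their median log2 level relative to the 6-library mean was -1.39, -0.23 and 1.06 in FLAG replicates 1 to 3 and -1.25, 0.54 and 1.32 in IgG replicates 1 to 3. Replicates 1 of both antibodies were low and replicates 3 of both were high, and the spread within an antibody was larger than the difference between them. The median of this class was 0.29 without IgG replicate 3 and -1.21 without FLAG replicate 3. The class held 6.51%, 10.1% and 13.7% of counts in the FLAG libraries and 7.4%, 13.8% and 15.5% in the IgG libraries. An apparent length this small depends strongly on the assumed fragment length, so levels per length are uncertain here.

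The next class held its direction in each library. For features of relative length 0.05 to 0.2 the median log2 level relative to the 6-library mean was 0.16, 0.77 and 0.67 in FLAG and -0.94, -0.05 and -0.47 in IgG replicates 1 to 3. The lowest FLAG library stood above the highest IgG library. All 366 features with this length, tested or not, took 8.29%, 13.4% and 11% of counts in FLAG and 5.43%, 8.62% and 6.32% in IgG, which overlapped in 1 library of each antibody. For features above 2 the medians were 0.05, -0.05 and 0.15 in FLAG and -0.25, -0.02 and 0.13 in IgG, which overlapped. The short class minus the long class was 0.11, 0.82 and 0.52 in FLAG and -0.7, -0.03 and -0.59 in IgG. The means were 0.485 ± 0.356 (SD, n = 3) and -0.441 ± 0.356 (SD, n = 3). The exact two-sided permutation p was 0.1, the smallest possible, and 0.267 after Benjamini-Hochberg adjustment over 4 measures. The length classes were set after the data were seen, and the contrast leaves out the shortest class. Adjustment over 4 measures does not cover these choices, so the p is descriptive. By the fitted fold changes this contrast ranged from 0.7 to 1.12 when each library was left out in turn.

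**Figure D3:**
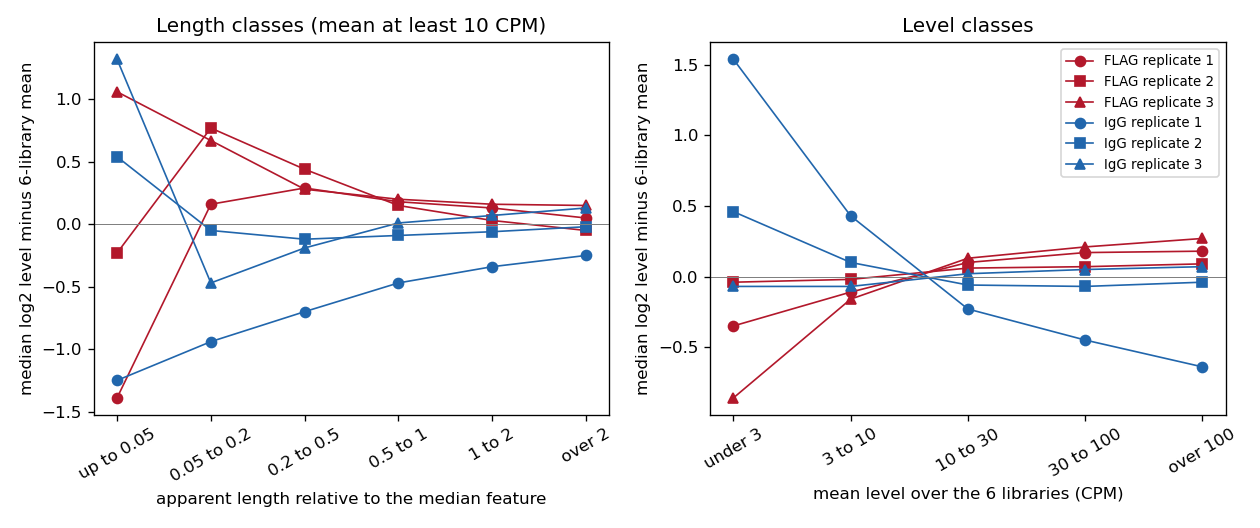
Lines join, for each of the 6 libraries, the median log2 level relative to the 6-library mean across classes of apparent length (left, features of at least 10 CPM) and of mean level in CPM (right). FLAG libraries (red) lie above IgG libraries (blue) at a relative length of 0.05 to 0.2, where the lowest FLAG value is 0.16 and the highest IgG value -0.05; IgG replicate 1 reaches 1.54 among features under 3 CPM.

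Few features were detected with 1 antibody alone. With at least 10 counts in each FLAG library, 3 features had a count of 0 in every IgG library, and 10 features showed the reverse. The feature with the smallest unadjusted p, ENSG00000258465.8, was among the 3 and was singled out after its values were seen. It had 9.98, 6.46 and 6.86 CPM in FLAG replicates 1 to 3 and 0 in IgG. Set against the floor of 3 counts over the IgG group, its level in FLAG was at least 83.4-fold higher (edgeR adjusted p = 0.103). With 0 counts in IgG it passed the expression filter only through the FLAG libraries. It was also picked by its p, so its fold and p are descriptive. Estimated counts of this feature were not whole in 3 libraries, as happens when counting splits reads between features. In medium it had 19.4 CPM in FLAG replicate 2 and 0 in FLAG replicates 1 and 3.

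Single features were taken by smallest unadjusted p among those with at least 20 CPM in the higher group and no overlap. ENSG00000114209.15 had 47.1, 46 and 43.2 CPM in FLAG replicates 1 to 3 and 17.8, 20.6 and 18 CPM in IgG. The FLAG libraries were tightly grouped and lay well above all IgG libraries. Its log2 fold change was 1.27 ± 0.19 (SE), with an edgeR adjusted p of 0.103. ENSG00000106399.11 had 28.7, 35 and 22.5 CPM in FLAG and 10.1, 9.84 and 9.09 CPM in IgG. Here the FLAG libraries spread more than the IgG libraries, without overlap. The fitted log2 difference was 1.57 ± 0.23 (SE), at an edgeR adjusted p of 0.103. Relative lengths of both were below the median feature's, at 0.522 and 0.462. Over the alternatives that kept all libraries, and that without IgG replicate 1 with adjusted deviances, the adjusted p of ENSG00000114209.15 ran from 2.478e-05 to 1 and that of ENSG00000106399.11 from 1.775e-06 to 1. Both low ends came from the edgeR fit with the replicate number as a block, described at the end.

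ENSG00000261150.3, lower in FLAG, had 25.2, 22.4 and 20.4 CPM there and 63.9, 46.8 and 42.7 CPM in IgG. The fitted log2 difference was -1.17 ± 0.22 (SE), at an edgeR adjusted p of 0.103, and the relative length was 9. ENSG00000285219.2 had 4.78, 6.09 and 4.47 CPM in FLAG and 53.4, 22.3 and 10.8 CPM in IgG. IgG replicate 1 was the highest for both features. The fitted log2 difference of ENSG00000285219.2 was -2.49 ± 0.48 (SE), at an edgeR adjusted p of 0.103, and it was -1.71 without IgG replicate 1. Over the same alternatives the adjusted p of ENSG00000261150.3 ran from 1.482e-04 to 1 and that of ENSG00000285219.2 from 3.329e-11 to 1. Here too both low ends came from the fit with the replicate number as a block.

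**Figure D4:**
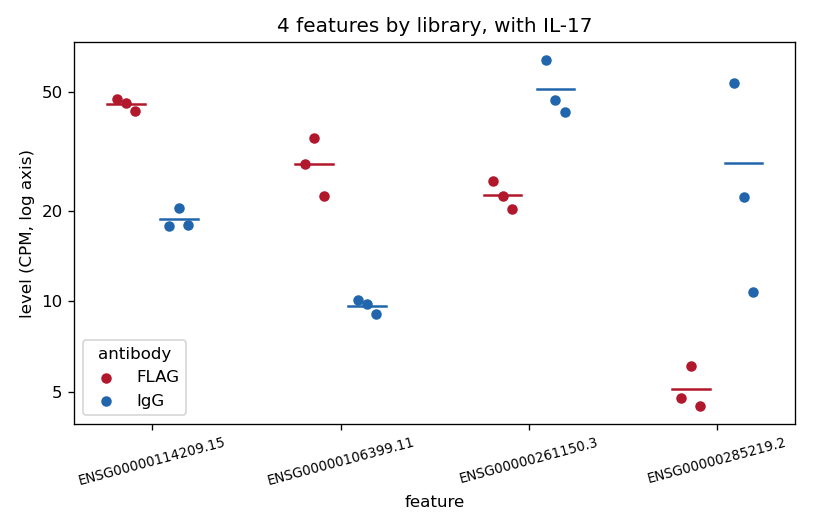
Points give the level (CPM, log axis) of 4 features in each of the 3 FLAG (red) and 3 IgG (blue) libraries with IL-17, and lines give group means. Absence of overlap between the groups was a condition for choosing the 4. ENSG00000114209.15 averages 45.4 CPM in FLAG and 18.8 CPM in IgG.

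The share of counts in the most abundant features was also compared. The 10 most abundant of each library took 15%, 23.6% and 32.2% of counts in FLAG and 20.1%, 24% and 30.3% in IgG, a difference of means of -1.21 percentage points with an exact two-sided permutation p of 0.9 in a design whose smallest p is 0.1. Ranked over all libraries, 5 of the 10 had log2 fold changes from 1.02 to 1.29, and 4 were below 0. By edgeR 0 of the 10 were higher and 1 was lower at an unadjusted p under 0.05, beside 10.9% and 11.6% of all tested features. For 2 of the 10 the antibodies' libraries were fully separate, 1 in each direction. Without overlap, 15.9% of all tested features were higher and 13.7% were lower. Of the 2, the higher had a log2 fold change of 1.28 (edgeR adjusted p = 0.246), and the other was the feature that was lower. The latter, ENSG00000196843.17, had 10170, 4317 and 7326 CPM in FLAG and 60600, 20790 and 11990 CPM in IgG. Its IgG libraries all lay above its FLAG libraries, over a wide range that IgG replicate 1 led, with a fitted log2 difference of -2.1 ± 0.78 (SE) at an edgeR adjusted p of 0.157. For this feature, libraries in medium held 118900, 4345 and 11640 CPM in FLAG and 38010, 150900 and 5670 CPM in IgG, which overlapped. The fitted log2 difference in medium was -0.53 (edgeR adjusted p = 0.9995). Among features higher at an unadjusted p under 0.05 without overlap, the most abundant was ENSG00000207513.1. It had 1076, 2387 and 1547 CPM in FLAG and 127, 276 and 325 CPM in IgG, a 6.88-fold difference (edgeR adjusted p = 0.103). This feature was very short, at 0.0135 of the median feature's length, and its estimated counts were not whole in any of the 6 libraries. In medium it had 12.1, 5.43 and 2 CPM in FLAG and 378, 2.44 and 14.8 CPM in IgG, which overlapped. Its log2 fold change there was -4.34 (edgeR unadjusted p = 0.00195, adjusted p = 0.9995).

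The same antibodies were compared in the 6 libraries kept in medium, which share no library with those above, in a fit of their own. For features tested in both, the 2071 higher with IL-17 had a median log2 fold change of 0.36 in medium, beside 0.34 over all 15355 such features. The 1665 lower with IL-17 had a median of 0.73 in medium, where 76.2% were above 0, beside 68% of all. The lower side thus had medians of opposite sign in the 2 treatments. Its sign with IL-17 was fixed by how these features were chosen, so this contrast is descriptive. The median over all 15355 features was 0.01 with IL-17, below that in medium. By length, the medians in medium were 0.4 at 0.05 to 0.2 and 0.24 above 2, beside 1.01 and 0.07 with IL-17. The shortest class, up to 0.05, had a median of -1.16 in medium, with 5.14% of its 175 features above 0, beside -0.3 with IL-17. The difference between the treatments was not tested. ENSG00000114209.15 had 35, 55.7 and 70.7 CPM in FLAG medium and 154, 90.8 and 58.4 CPM in IgG medium, which overlapped.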

How the data were processed

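The submitters' processing notes name the builds hg38 and GRCh38 and the tools RSEM 1.3.1, STAR 2.7.9, R 4.2.0 and DESeq2 1.36.0, without saying what each was used for. The authors deposited estimated counts, of which 21.3% of values above 0 were not whole in the 6 libraries, and they were rounded. The second deposited table, named for FPKM, holds TPM, since each column sums to 1000000; planned FPKM alternatives were run on TPM. Groups came from sample titles. Members, lists and rules were chosen with earlier results of these data known. The planned rule for named genes required a symbol; as 0 identifiers matched, the 61 planned gene lists and classes were not used, and 2 features per direction were taken without that condition.

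In edgeR 4.0.16 (R 4.3.3), filterByExpr with a minimum count of 10 was applied to the 6 libraries. TMM factors were computed and the quasi-likelihood test was run. The code was also run on data simulated with a dispersion of 0.05, lower than in these libraries. That run does not show how many features the test could call here. Features with a p under 0.05 after Benjamini-Hochberg adjustment were called. CPM are TMM-scaled. The common dispersion was 0.247 and log2 fold changes had a median standard error of 0.413. Apparent length used at least 20 counts and 0.2 TPM and is the median over libraries; among 9174 features measured in all 6, its median SD was 0.199 on the log2 scale. Length and level classes were set after seeing the data. Log2 levels of libraries used a prior count of 2. Alternatives used limma 3.58.1 and DESeq2 1.42.0.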

Additional observations from a re-analysis of the deposited data

How the results depend on the processing

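Counts are features higher and lower in FLAG, where the reported fit gave 0 and 0 at an adjusted p under 0.05 and 2100 and 2248 at an unadjusted p under 0.05. For none of these moves was the cause tested. At the adjusted threshold, library size only gave 1 higher, no filter 450 and 484, DESeq2 744 and 1152, limma voom with quality weights 369 and 216, limma on log2(TPM + 1) 3 and 4, limma on log2(TPM + 0.1) 3 and 5, and adjusted deviances without IgG replicate 1 gave 1 higher. RLE factors, upper-quartile factors, the strict filter, robust estimation, adjusted deviances, all 12 libraries, thinning and removal of the 10 most abundant features gave 0 and 0. At the unadjusted threshold, library size only gave 476 higher, upper-quartile factors 1229 higher, no filter 4045 lower, the filter of 50 counts in 3 libraries 1324 and 1357, limma on log2(TPM + 1) 49 and 423, limma on log2(TPM + 0.1) 67 and 715, and all 12 libraries 190 and 301. Leaving out each library in turn gave from 0 to 310 higher and from 0 to 452 lower features at the adjusted threshold, and from 1143 to 2733 higher and from 1358 to 3226 lower at the unadjusted one; all calls above 1 came without IgG replicate 3. ENSG00000114209.15, ENSG00000106399.11, ENSG00000261150.3, ENSG00000285219.2 and ENSG00000258465.8 kept their sign throughout. ENSG00000207513.1 and ENSG00000196843.17 were not followed through these alternatives. The median of features under 3 CPM turned from -1.36 to 0.96 with the filter of 50 counts, which kept 5 of them. The short-minus-long contrast, in which scaling factors nearly cancel, ran from 0.73 to 1.02 over all 16 alternatives and from 0.7 to 1.12 over the fits without 1 library. The combined fit without IgG replicate 1, the fit without abundant features and thinning to 5365477 counts were chosen after seeing the data.

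With the replicate number as a block, edgeR called 1184 higher and 922 lower. Same-numbered FLAG and IgG libraries deviated from their group means with correlations of 0.194, -0.048 and 0.386. FLAG replicates 1 and 3 correlated best with the IgG library of their own number, and FLAG replicate 2 with IgG replicate 1, at 0.357. The labels do not say what a replicate number shares, and whether these libraries were paired was not tested. The fit with the block had 2 residual degrees of freedom and an infinite prior, so every feature shared 1 spread around the trend.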
